A study of Mus musculus with 5 samples.

Results

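The 10 genes described here were Rhox5, Rhox6 and Rhox9, of the X-linked Rhox homeobox cluster, the trophoblast transcription factor genes Cdx2, Eomes, Elf5, Gata3, Tfap2c and Hand1, and the placental hormone gene Prl8a9. They were chosen by symbol. Where several probe sets were annotated to a gene alone, the brightest of them on average over the 5 arrays stood for it. All 10 were found among the 18193 genes measured. The samples were total RNA of E14 mouse embryonic stem cells on Affymetrix arrays, 3 labelled Trip12 mut/mut, that is with both Trip12 alleles mutated (replicates 1 to 3), and 2 wild type (WT, replicates 1 and 2). The protein of Trip12 is an E3 ubiquitin ligase of the HECT class, which attaches ubiquitin to other proteins. Per the labels' protocols, cells of both genotypes grew on mouse embryo fibroblast feeders, in medium with leukaemia inhibitory factor at 100 units/ml, 1% fetal bovine serum and 14% serum replacement. The labels call the samples biological replicates without saying whether they came from separate cultures or clones, so p-values measure only the spread between these samples, which may be technical. The sources used here do not give the nature of the mutation or say whether feeders were taken off before RNA extraction.

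Trophoblast is the outer lineage of the mouse embryo and forms the fetal part of the placenta. In the mouse, Cdx2, Eomes, Elf5, Gata3 and Tfap2c maintain its stem cells, Hand1 acts in giant cells, and prolactin-family genes such as Prl8a9 are transcribed in the placenta. Embryonic stem cells normally contribute little to trophoblast, and DNA methylation at the Elf5 promoter is one known barrier. Rhox genes encode homeodomain proteins of reproductive tissues. Rhox5, also called Pem, is transcribed in embryonic stem cells, and Rhox6 and Rhox9, also called Psx1 and Psx2, are known from placenta and germ cells.

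The upstream sequences of 4 members are shown for their content of CG dinucleotides, the site of DNA methylation. These members had a promoter sequence available here. Their values on Trip12 mut/mut replicates 2 and 3 lay both above or both below the WT arrays. Each sequence is the 250 bases before the annotated gene start in RefSeq, build GRCm38.p6, on the gene's own strand, with CG in capitals. The promoter sequences used here had entries for 6 of the 10 members and none for Rhox6, Rhox9, Tfap2c or Hand1. The Prl8a9 sequence lies at chr13:27564607-27564856 on the minus strand, the Rhox5 sequence at chrX:37754358-37754607 on the plus strand, the Gata3 sequence at chr2:9878601-9878850 on the minus strand and the Eomes sequence at chr9:118477939-118478188 on the plus strand.
Prl8a9: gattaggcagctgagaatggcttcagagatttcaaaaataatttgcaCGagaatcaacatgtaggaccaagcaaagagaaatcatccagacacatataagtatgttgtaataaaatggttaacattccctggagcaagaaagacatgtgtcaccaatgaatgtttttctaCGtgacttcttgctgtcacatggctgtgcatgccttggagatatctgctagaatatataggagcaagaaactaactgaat
Rhox5: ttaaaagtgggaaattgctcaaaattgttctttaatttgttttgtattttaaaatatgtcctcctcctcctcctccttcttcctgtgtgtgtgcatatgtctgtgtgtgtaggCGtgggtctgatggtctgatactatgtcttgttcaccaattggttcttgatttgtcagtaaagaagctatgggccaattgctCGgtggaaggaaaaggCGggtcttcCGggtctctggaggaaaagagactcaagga
Gata3: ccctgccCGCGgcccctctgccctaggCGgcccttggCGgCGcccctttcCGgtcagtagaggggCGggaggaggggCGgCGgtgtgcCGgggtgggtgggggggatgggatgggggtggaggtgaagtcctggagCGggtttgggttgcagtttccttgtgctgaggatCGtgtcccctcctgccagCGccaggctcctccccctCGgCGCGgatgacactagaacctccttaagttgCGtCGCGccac
Eomes: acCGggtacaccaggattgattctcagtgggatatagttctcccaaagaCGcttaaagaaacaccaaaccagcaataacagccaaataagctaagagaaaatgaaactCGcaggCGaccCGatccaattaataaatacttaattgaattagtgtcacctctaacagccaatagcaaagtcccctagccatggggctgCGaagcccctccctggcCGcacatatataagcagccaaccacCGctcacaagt

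The Prl8a9 sequence held 2 CG and the Rhox5 sequence 4, against 19 in the Gata3 sequence, and the median over 32851 promoter sequences of this length was 6. Of these sequences 29% held as many CG as Prl8a9 or fewer, and 44.4% as many as Rhox5 or fewer. Fewer than in Gata3 were held by 80.3%. The Cdx2 sequence held 13 CG, the Eomes sequence 8, and the 2 Elf5 entries 2 and 8. A script searched both strands for AGATAA and TGATAA, letters bound by GATA factors, for TTTATNG, letters bound by CDX factors, and for GCCNNNGGC, the palindrome bound by AP-2 factors such as Tfap2c. AGATAA and TGATAA share all letters but the first, so no site matches both, and no match of one motif overlapped a match of another. GCCNNNGGC occurred 3 times in the Gata3 sequence and 1 time in the Cdx2 sequence, and 13.7% of all promoter sequences held it. The other 3 motifs, held by 9.99%, 7.94% and 9.81% of all promoter sequences, matched in none of the 7 entries of the members. These matches describe letters in this window only, and methylation was not measured.

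The arrays did not fall into the labelled groups. The array labelled Trip12 mut/mut replicate 1 differed from the WT arrays with SDs of 0.123 and 0.124 over 45037 probe sets, and the 2 WT arrays differed from each other with an SD of 0.123. Replicates 2 and 3 differed from WT with SDs between 0.273 and 0.321, and from each other with an SD of 0.242. Trip12 itself read 10.18, 12.09 and 12.57 on Trip12 mut/mut replicates 1, 2 and 3, against 10.17 and 10.25 on the WT arrays. Trip12 had 7 probe sets, and only the brightest is given here. The position of that probe set relative to the mutation is unknown here. So these values show a difference between arrays and not the loss of a functional transcript. Each result is therefore given over all 5 arrays as labelled and over 4 arrays without the array labelled replicate 1. Whether that array holds Trip12 mut/mut RNA was not tested, and each difference over all 5 arrays takes its label as given. Because that array was set aside for its values, p-values over 4 arrays are too favourable. Markers of embryonic stem cells were present on every array, with Pou5f1, a core pluripotency factor, at 12.46, 12.42 and 12.25 on the Trip12 mut/mut arrays and 12.45 and 12.48 on the WT arrays. The 24 measured fibroblast markers averaged 10.48, 10.96 and 11 on Trip12 mut/mut replicates 1 to 3, against 10.5 and 10.51 on the WT arrays. All values are log2 RMA values, in which 1 unit is a 2-fold difference, and differences are Trip12 mut/mut minus WT.

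**Figure D1:**
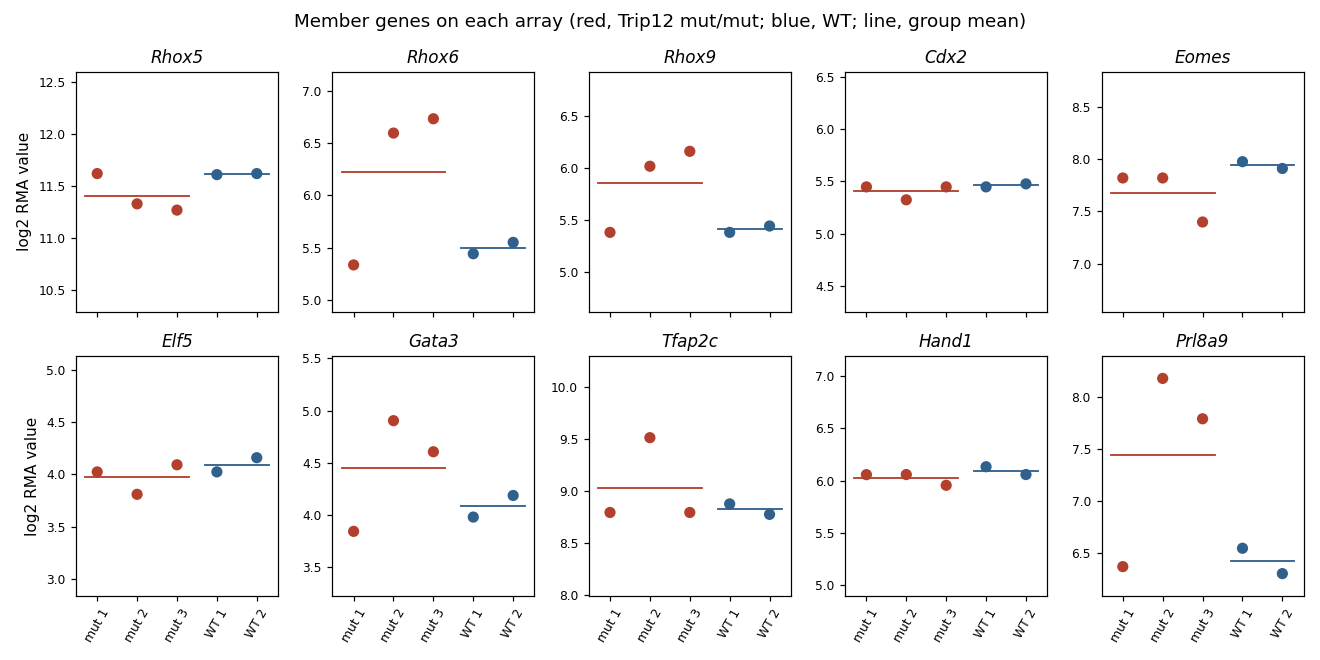
Log2 RMA value (vertical axes, each spanning the same number of log2 units) of each of the 10 genes on the 3 Trip12 mut/mut arrays (red) and the 2 WT arrays (blue), with the group means as lines. Rhox6, Rhox9, Gata3 and Prl8a9 read higher on Trip12 mut/mut replicates 2 and 3 than on the WT arrays, while the array labelled replicate 1 lay near WT.

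Rhox6 and Rhox9 were higher on Trip12 mut/mut replicates 2 and 3, and their neighbour Rhox5 was slightly lower there. Rhox6 read 5.33, 6.60 and 6.73 on Trip12 mut/mut replicates 1, 2 and 3, against 5.44 and 5.55 on the WT arrays. Replicates 2 and 3 stood apart from the other arrays, and the array labelled replicate 1 was the lowest of all. Relative to the WT mean, Rhox6 was at 0.894-fold, 2.15-fold and 2.36-fold on the 3 Trip12 mut/mut arrays. With all 5 arrays, the Trip12 mut/mut mean was 6.22 ± 0.77 (SD, n = 3) and the WT mean 5.49 ± 0.08 (SD, n = 2), a difference of 0.73 with an SE of 0.48 that did not pass (limma, adjusted p = 0.748).

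On the 4 arrays Rhox6 rose by 1.17 (SE 0.09), which is 2.25-fold, with an adjusted p of 0.042 among genes with at least 2 arrays above the median of all probe sets, 5.52. Over all genes, with no such filter, its adjusted p on the same arrays was 0.0785. Only 1 of the 2 WT values lay above the filter's bound, so Rhox6 entered the filtered test through its high values on replicates 2 and 3, and its call there rests on that filter. Without WT replicate 1 the adjusted p was 0.59, and without WT replicate 2 it was 0.594.

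Rhox9 read 5.38, 6.01 and 6.16 on Trip12 mut/mut replicates 1, 2 and 3, against 5.38 and 5.44 on the WT arrays. Again replicates 2 and 3 lay above all other arrays, at 1.52-fold and 1.68-fold of the WT mean. The difference over all 5 arrays was 0.44 with an SE of 0.26 (adjusted p = 0.748). On the 4 arrays Rhox9 rose by 0.67 (SE 0.09), or 1.60-fold (adjusted p = 0.0467, and 0.0815 with no filter). Both WT values lay below 5.52, so Rhox9 too was tested there only because it was high on replicates 2 and 3. Without WT replicate 1 its adjusted p was 0.59 and without WT replicate 2 it was 0.594, and with either mutant array left out it was not tested. Each of these Rhox genes had 1 probe set.

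Rhox5 read 11.62, 11.33 and 11.27 on Trip12 mut/mut replicates 1, 2 and 3, against 11.61 and 11.62 on the WT arrays. The 2 lower values were at 0.822-fold and 0.79-fold of the WT mean, and the array labelled replicate 1 did not stand apart from WT. The difference over all 5 arrays was -0.21 with an SE of 0.12 (adjusted p = 0.748). On 4 arrays it was -0.31 with an SE of 0.07 and did not pass (adjusted p = 0.0802, and 0.0946 with no filter). Rhox5 did pass with a gene's probe sets averaged in place of the brightest (adjusted p = 0.0424), although its own values are the same there. It did not pass with array weights (adjusted p = 0.189) or with the probe set of largest SD (0.104). Its difference was -0.34 and -0.28 without replicates 2 and 3 in turn, and -0.32 and -0.31 without WT replicates 1 and 2.

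The Rhox cluster holds 41 Rhox entries in the RefSeq gene table, of which 4 were measured by a probe set of their own. The fourth, Rhox13, a member at the far end of the cluster, read 8.80, 9.25 and 9.15 on Trip12 mut/mut replicates 1, 2 and 3, against 8.85 and 8.83 on the WT arrays. It was 0.36 higher over the 4 arrays (SE 0.07) and did not pass (adjusted p = 0.0737). Rhox6, Rhox9 and Rhox13 were therefore higher than both WT values on replicates 2 and 3, and Rhox5 lower. Of the 5 measured genes on each side of the cluster, chosen after values were seen, 7 of 10 were bright enough for the filtered test. There Lamp2, a lysosomal membrane protein gene, rose by 0.75 and Gm9 fell by 1.31 (adjusted p = 0.042 each), and the other 5 did not pass.

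**Figure D2:**
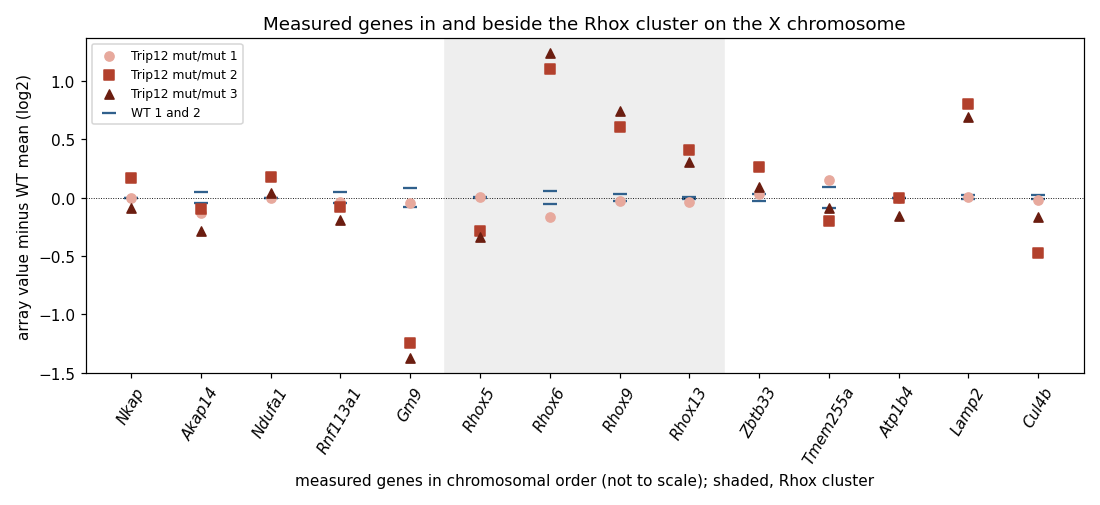
Array value minus the WT mean on the log2 scale (vertical axis) for measured genes in their order along the X chromosome (horizontal axis, not to scale), for Trip12 mut/mut replicates 1 to 3 (circles, squares, triangles) and the WT arrays (dashes), with the Rhox cluster shaded. At Rhox6, replicates 2 and 3 differed from the WT mean by 1.10 and 1.24, and at Rhox5 by -0.28 and -0.34.

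Prl8a9, a placental gene of the prolactin family, had the largest difference of the 10 genes. It read 6.37, 8.17 and 7.79 on Trip12 mut/mut replicates 1, 2 and 3, against 6.55 and 6.30 on the WT arrays. On replicates 2 and 3 it was at 3.36-fold and 2.57-fold of the WT mean, and the array labelled replicate 1 lay between the WT arrays. As labelled, the Trip12 mut/mut mean was 7.44 ± 0.95 (SD, n = 3) and the WT mean 6.42 ± 0.17 (SD, n = 2), a difference of 1.02 with an SE of 0.59 (limma, adjusted p = 0.748). On the 4 arrays Prl8a9 rose by 1.56 (SE 0.18), or 2.94-fold, with an adjusted p of 0.0422 (0.0834 with no filter). That call was lost without any 1 of the 4 arrays, with adjusted p of 0.0836 and 0.0527 without replicates 2 and 3, and 0.59 and 0.594 without WT replicates 1 and 2.

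Other genes of the prolactin family were dim. Of 25 listed for comparison 17 were measured, 0 of them bright enough for the filtered test. Their median difference over the 4 arrays was 0.03, against 0.02 over all genes. With no filter 0 of the 17 passed, as did 0% of all genes, so that count does not set them apart. At an unadjusted p below 0.05 the unfiltered 4-array comparison held 3730 of 18193 genes. The smallest unadjusted p of the 17 there was 0.0882 (limma), for Prl8a2. Prl8a2, a decidual prolactin-like gene, read 3.02, 3.31 and 3.07 on Trip12 mut/mut replicates 1, 2 and 3, against 2.96 and 2.92 on the WT arrays, all near the bottom of the scale.

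Among the transcription factors of trophoblast stem cells, Gata3 read 3.84, 4.90 and 4.61 on Trip12 mut/mut replicates 1, 2 and 3, against 3.98 and 4.19 on the WT arrays. On replicates 2 and 3 it lay above both WT arrays, at 1.77-fold and 1.44-fold of the WT mean, but all 5 values were below the median of all probe sets. Its difference over all 5 arrays was 0.37 with an SE of 0.35 (adjusted p = 0.75). With 4 arrays and no filter it was 0.67, with a 95% interval from 0.22 to 1.13, and did not pass (adjusted p = 0.146).

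Eomes, a T-box factor, read 7.82, 7.82 and 7.40 on Trip12 mut/mut replicates 1, 2 and 3, against 7.98 and 7.91 on the WT arrays. It was the one member whose labelled groups did not overlap over all 5 arrays, with every Trip12 mut/mut value below both WT values, as was the case for 12% of all genes, or 6.29% counting only those lower. The difference over all 5 arrays was -0.26 with an SE of 0.16 (adjusted p = 0.748), and over the 4 arrays -0.33 with an SE of 0.17 (adjusted p = 0.282). A second Eomes probe set read 7.78, 7.35 and 7.14 on Trip12 mut/mut replicates 1, 2 and 3, against 7.57 and 7.66 on the WT arrays, so there the array labelled replicate 1 was the highest.

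Tfap2c, which encodes an AP-2 factor, read 8.80, 9.51 and 8.80 on Trip12 mut/mut replicates 1, 2 and 3, against 8.88 and 8.78 on the WT arrays. Only replicate 2 stood out, at 1.61-fold of the WT mean, and replicate 3 was at 0.978-fold. The difference of 0.21 over all 5 arrays (SE 0.26, adjusted p = 0.775) turned to -0.03 without replicate 2. The other 2 Tfap2c probe sets were 0.27 and 0.03 above the WT mean on replicate 2.

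Cdx2, a caudal-type homeobox factor, read 5.45, 5.32 and 5.45 on Trip12 mut/mut replicates 1, 2 and 3, against 5.45 and 5.48 on the WT arrays. Elf5, an ETS factor, read 4.03, 3.81 and 4.09 on the Trip12 mut/mut arrays, against 4.03 and 4.16 on the WT arrays. Hand1, a bHLH factor, read 6.06, 6.06 and 5.96 on the Trip12 mut/mut arrays, against 6.13 and 6.06 on the WT arrays. None of these genes had replicates 2 and 3 both outside the WT range on the same side. Over all 5 arrays the 95% interval of the difference ran from -0.22 to 0.11 for Cdx2 and from -0.41 to 0.18 for Elf5. For Hand1 it ran from -0.24 to 0.09. Differences of 2-fold in these array readings lay outside these intervals. Cdx2 and Elf5 were below the median of all probe sets on all 5 arrays. For such dim genes a change in the transcript itself was not excluded. A dimmer second Hand1 probe set averaged 3.73 on the Trip12 mut/mut arrays and 3.59 on the WT arrays, a difference of opposite sign, 0.13.

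**Figure D3:**
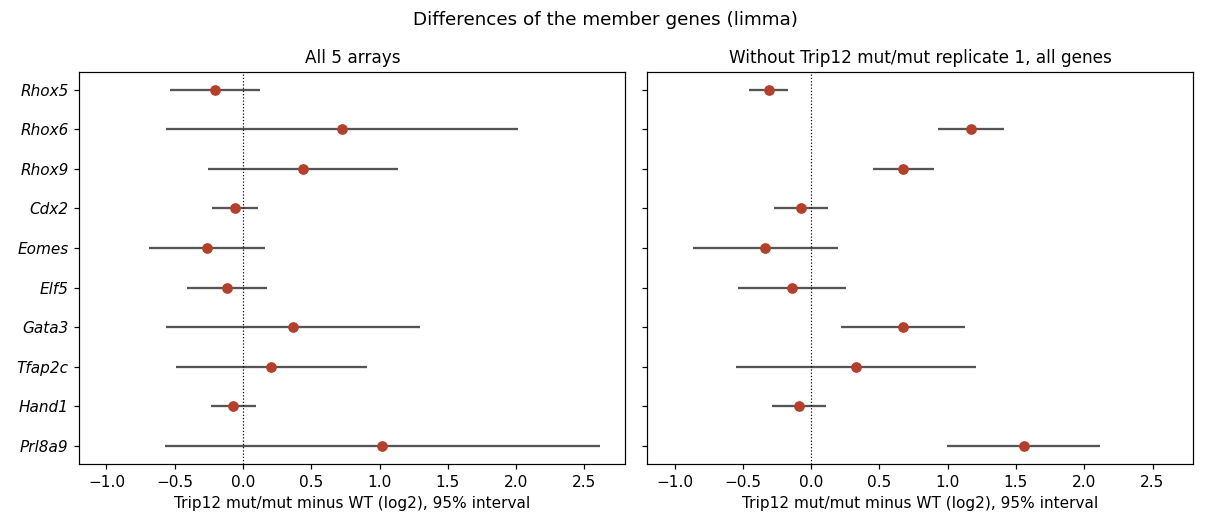
Difference of Trip12 mut/mut minus WT on the log2 scale (horizontal axes) with its 95% interval from limma for each gene, over all 5 arrays (left) and over the 4 arrays left when Trip12 mut/mut replicate 1 is set aside, with no filter (right). Every interval includes 0 over all 5 arrays. Over 4 arrays those of Prl8a9, Rhox6, Rhox9 and Gata3 lie above 0 and that of Rhox5 lies below it.

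Counted over the 10 genes, 0 passed over all 5 arrays in limma, as did 0% of the 18193 genes, and 0 of the 10 had an unadjusted p below 0.05, against 1.18% of all genes. The median difference of the 10 genes was 0.08, and that of all genes was 0.02. Over the 4 arrays with the filter, 7 of the 10 genes were tested, and Rhox6, Rhox9 and Prl8a9 passed as higher. The background there was 4.64% of 11626 genes, 3.29% as higher and 1.34% as lower. Since Rhox6 and Rhox9 could be tested only through their high values on replicates 2 and 3, this count does not describe the 10 genes. With no filter 0 of the 10 and 0% of all genes passed over these arrays, while 5 of the 10 had an unadjusted p below 0.05, against 20.5% of all genes. Replicates 2 and 3 did not overlap WT for 6 of the 10 genes, with 4 higher and 2 lower, against 44.2% of all genes, 26.7% higher and 17.5% lower.

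Other transcription factors and signalling genes of trophoblast lay more often above than below both WT arrays on replicates 2 and 3. Of 35 listed for comparison 33 were measured and 28 were tested over the 4 arrays with the filter. Of these 0 passed, against 4.64% of 11626 genes, a share too small for 0 of 28 to set them apart. Their median difference over the 4 arrays was 0.17 with no filter, against 0.02 over all genes. Replicates 2 and 3 lay above both WT arrays for 18 of the 33, against 26.7% of all genes, and below for 5, against 17.5%. Those with the smallest adjusted p were Esrrb, an orphan nuclear receptor of stem cells of both lineages, with a difference of 0.57 (adjusted p = 0.0501), and Bmp4, a signalling ligand, with 0.54 (0.053). Nr2f2, another orphan nuclear receptor, had a difference of 0.80 (0.0585), and Mbnl3, an RNA-binding protein gene of placenta, -0.68 (0.0615).

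Structural and secreted markers of trophoblast went both ways. Of 32 listed for comparison 27 were measured, with a median over the 27 of -0.08. The filter left 14 to test, of which 2 rose, 4 fell and 8 did not pass. Over all genes tested 3.29% passed as higher and 1.34% as lower. Replicates 2 and 3 lay above both WT arrays for 5 of the 27, against 26.7% of all genes, and below for 9, against 17.5%. Keratins 8 and 18 pair in the filaments of simple epithelia, which include trophoblast. Krt8 read 11.21, 8.96 and 9.44 on Trip12 mut/mut replicates 1, 2 and 3, against 11.22 and 11.27 on the WT arrays, and fell by 2.04 over the 4 arrays (adjusted p = 0.042). Krt18 fell by 1.28 (adjusted p = 0.042), Krt7 by 0.78 (0.0482), and Epcam, an epithelial adhesion molecule gene, by 1.11 (0.0405). Plet1, a surface marker of trophoblast progenitors, read 7.04, 8.10 and 7.92 on the Trip12 mut/mut arrays against 7.14 and 7.11 on the WT arrays, and rose by 0.88 (adjusted p = 0.042). Gjb5, a connexin gene of placenta and skin, rose by 1.04 (adjusted p = 0.0426). Krt7 and Gjb5 fell outside the naming rule and were named after their values were seen.

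**Figure D4:**
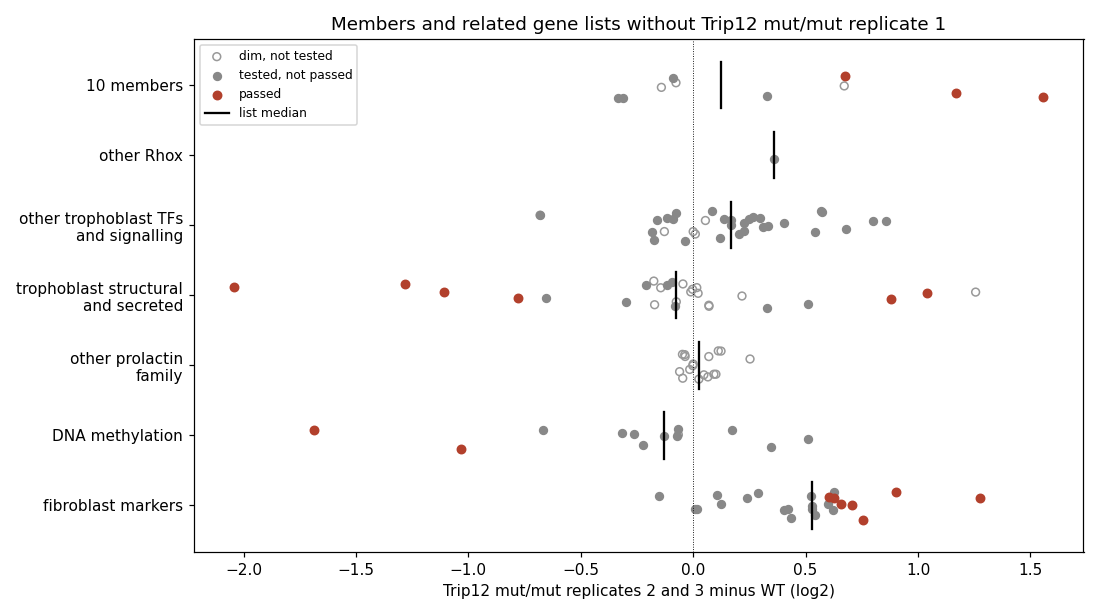
Difference of Trip12 mut/mut replicates 2 and 3 minus WT on the log2 scale (horizontal axis) for each measured gene of the 10 members and of 6 lists (rows), with filled red points for genes that passed with the filter, grey for those tested that did not, open circles for dim genes not tested and a bar at the list median. The structural list spans from -2.04 at Krt8 upward, while the other prolactin genes lie close to 0.

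DNA methylation genes were of interest because methylation represses Rhox genes in the mouse embryo. Dnmt3b, a de novo methyltransferase gene, read 12.37, 10.54 and 10.79 on Trip12 mut/mut replicates 1, 2 and 3, against 12.36 and 12.34 on the WT arrays, and fell by 1.69 (adjusted p = 0.0413). Dnmt3a, the other such gene, fell by 1.03 (adjusted p = 0.042). Of 12 tested with the filter 2 fell and 0 rose, against 1.34% and 3.29% of all genes tested. Replicates 2 and 3 lay below both WT arrays for 6 of the 13 measured, against 17.5% of all genes, and above for 2, against 26.7%. Dnmt3l, their catalytically inactive cofactor, had a difference of 0.51 (adjusted p = 0.0622) and Uhrf1, which recruits the maintenance enzyme, -0.31 (0.0735). Rhox6, Rhox9 and Prl8a9 were high on the 2 arrays on which Dnmt3a and Dnmt3b were low. On these 2 arrays 44.2% of all genes did not overlap WT, so sharing this split is common. Rhox5, of the same cluster as Rhox6 and Rhox9, was lower there, at -0.28 and -0.34 from the WT mean. The part of the DNA methylation genes in these differences was not tested.

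Markers of other cell types moved on the same arrays. Of the 24 measured fibroblast markers 7 rose and 0 fell over the 4 arrays with the filter, against 3.29% and 1.34% of genes tested. On replicates 2 and 3, 18 of the 24 lay above both WT arrays, against 26.7% of all genes. Twist2, a mesenchymal transcription factor gene, rose by 0.90 and Timp3, an inhibitor of metalloproteinases, by 1.28 (adjusted p = 0.042 each). Prrx1, a mesenchymal homeobox gene, rose by 0.66 (adjusted p = 0.042) and the collagen gene Col5a1 by 0.75 (adjusted p = 0.0426). All 24 averaged above the median of all probe sets in WT, and their part in the members' differences was not tested. In bulk RNA, a change in the number of cells of a type and a change in the RNA of each cell cannot be told apart.

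The 13 measured primitive endoderm markers had a median difference of 0.06 over the 4 arrays with no filter. Replicates 2 and 3 lay above both WT arrays for 5 of them, against 26.7% of all genes, and below for 2, against 17.5%. Of the 8 bright enough for the filtered test, the basement membrane genes Col4a1 and Sparc rose by 0.70 (adjusted p = 0.042) and 0.53 (0.049), both of which fibroblasts also express. Dab2, an endocytic adaptor gene, had a difference of 0.57 (adjusted p = 0.0648) and the endoderm factor Gata6 0.23 (0.152). Foxa2, another endoderm factor and too dim for that test, had a difference of -0.84 with no filter (adjusted p = 0.167). Of 11 germ cell markers 2 rose, Dazl by 1.33 (adjusted p = 0.0391) and Taf7l by 1.14 (0.0464), and 2 fell, Dppa3 with a difference of -2.10 (0.0243) and Sycp3 with -1.60 (0.0391). Over all genes tested with the filter 3.29% passed as higher and 1.34% as lower. Replicates 2 and 3 lay above both WT arrays for 5 of the 11 and below for 4. Of 10 embryonic stem cell markers 1 fell, Utf1, a chromatin-associated factor gene, by 0.80 (adjusted p = 0.0422), and 0 rose. On replicates 2 and 3, 5 of these 10 lay below both WT arrays and 2 above. Esrrb, described above, is also in that list. Of its other genes with the smallest adjusted p, Fgf4 had a difference of -0.19 (0.22) and Tdgf1 of -0.10 (0.396). Of 10 measured mesoderm markers, with a median difference of -0.04, only Kdr was bright enough for the filtered test, with a difference of 0.40 (adjusted p = 0.403) and values of 7.02 on replicate 2 and 6.30 on replicate 3. Mixl1, a mesendoderm homeobox gene, had a difference of -0.75 with no filter (adjusted p = 0.0785). Foxa2 and Mixl1 were named after their values were seen.

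**Figure D5:**
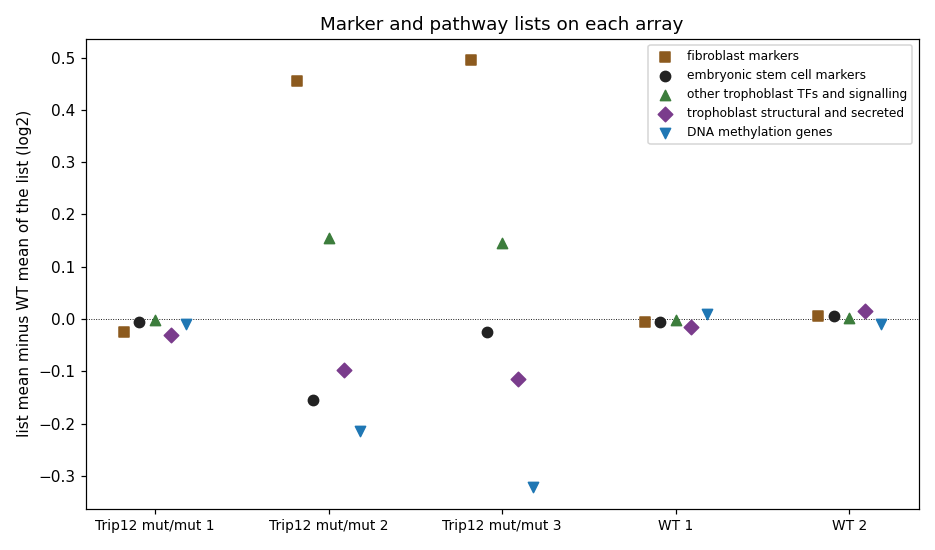
Mean of each list minus its mean over the 2 WT arrays, on the log2 scale (vertical axis), on each Trip12 mut/mut and WT array (horizontal axis). The DNA methylation genes averaged 10.19, 9.99 and 9.88 on Trip12 mut/mut replicates 1, 2 and 3, against 10.21 and 10.19 on the WT arrays, and the fibroblast markers lay above their WT mean on replicates 2 and 3.

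The genes most like Prl8a9, Rhox6 and Rhox9 over the 5 arrays were found by the root mean square distance between values after each gene's own mean was subtracted, among 11560 genes whose mean was not below 5.52. Nearest to Prl8a9 were U90926 at a distance of 0.0649 log2 units, Ankrd1 at 0.0979 and Mmrn2 at 0.113. Nearest to Rhox6 were Acpp at 0.0514, Sprr1a at 0.0888 and Plekhg1 at 0.0909. Nearest to Rhox9 were Anxa5 at 0.0268, Fxyd5 at 0.0289 and Cd80 at 0.0306. Among the members, Rhox6 lay 0.27 from each of Prl8a9, Rhox9 and Gata3. U90926, the closest gene to Prl8a9, read 7.84, 9.58 and 9.28 on Trip12 mut/mut replicates 1, 2 and 3, against 8.03 and 7.91 on the WT arrays. These distances describe 5 arrays that share the same split.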

How the data were processed

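The deposited table gives log2 values for each probe set on each array. The authors made them with RMA, per the submitters' processing notes, which subtracts background, equalises the arrays and combines the probes of a set. The sources used here do not name its version. Medians of the arrays ran from 5.51 to 5.55, so a global shift in RNA cannot be seen, and RMA makes no detection calls. Of 45101 probe sets, 64 controls were left out. The platform annotation gave 34945 of the others 1 gene symbol, 932 several and 9160 none; those with several named no gene. A GRCm38.p6 gene table gave current symbols.

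Genotypes were compared gene by gene in R 4.3.3 with limma 3.58.1, using lmFit and eBayes without covariates, and two-sided p-values were adjusted over all genes tested (Benjamini-Hochberg, threshold 0.05). The filtered comparison over 4 arrays kept genes with at least 2 arrays above the median of all probe sets. Precision is limited by the number of arrays. Of the 10 members 6 had a value that 2 or more arrays shared to 6 decimals, as did 57.4% of genes, which lowers their apparent spread. The members, lists and comparisons were chosen with earlier results of these data known. Besides the members, up to 4 genes per list with the smallest adjusted p over the 4 arrays were named, and 3 genes of like pattern for each of the 3 members with the largest range. Python 3.11.15 with matplotlib 3.10.9 drew the figures.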

Additional observations from a re-analysis of the deposited data

How the results depend on the processing

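Over all 5 arrays, 0 genes and 0 of the 10 members passed in limma with a filter on dim genes, quantile normalisation, array weights, median centring, a robust variance trend, probe sets averaged or taken by largest SD, or any array left out. The reported fit held 214 genes at an unadjusted p below 0.05, and these alternatives 88 to 3730. With the replicate block 0 genes passed too, with 133 below an unadjusted 0.05. Deviations from the group means correlated at -0.05 for replicate 1 and -0.08 for replicate 2. The split among the Trip12 mut/mut arrays dominates their deviations, so this cannot decide whether the numbers pair the arrays. Over the 4 arrays only 1 number is shared and no block could be fitted. The Tfap2c difference ranged from -0.032 (without Trip12 mut/mut replicate 2) to 0.33 with each of 5 arrays left out, and from -0.032 to 0.69 with each of 4 left out. Hand1 turned to 0.031 with averaged probe sets and 0.13 with the probe set of largest SD. No other member changed direction under any of these alternatives.

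Over the 4 arrays with the filter, the 539 genes called became 997 with quantile normalisation, 1190 with centring, 1461 with averaged probe sets, 0 with array weights (2299 at an unadjusted p below 0.05) and 0 with no filter (3730). Leaving out 1 array gave 0 without either WT array (946 and 955 at an unadjusted p below 0.05), 2686 without replicate 2 and 4912 without replicate 3, so this count ranged from 0 to 4912. The lone array left in a group is assumed there to vary like the others. The 3 members called became 0 with array weights, 0 with no filter, and 0 to 2 with 1 array left out; these were 0 without either WT array, Rhox5 alone without replicate 2, and Rhox5 and Rhox6 without replicate 3. The cause was not tested.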
